A study of Mus musculus with 13 samples.

Results

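The 10 genes followed here mark the epithelium of the choroid plexus, the secretory tissue of the brain ventricles, and were measured in RNA from isolated brain vessels. The genes were Ttr, Kl, Folr1, Clic6, Aqp1, Slc4a5, Otx2, Enpp2, Kcne2 and Prlr. They were chosen by symbol as a check of tissue carried along with the vessels, and each symbol matched 1 of the 47643 genes in the count table. All 10 passed the filter on low counts, as did 17285 genes in all.

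RNA was sequenced from the neurovascular fraction of 13 male CD1 mice aged 8 to 10 weeks, with 1 library per mouse. There were 4 sham-vehicle, 5 LPS-vehicle and 4 LPS-CPD-4645 mice, the last treated with LPS plus the compound CPD-4645. LPS, the endotoxin from the outer membrane of Gram-negative bacteria that sets off an innate immune response, was injected intraperitoneally at 0, 6 and 24 h, each time at 3 mg/kg. CPD-4645 inhibits monoacylglycerol lipase, which hydrolyses the endocannabinoid 2-AG, and was dosed subcutaneously at 10 mg/kg following every LPS injection. The series text names PBS as the control of LPS, and the labels give vehicle in place of the compound for the other groups. Brains were taken at 28 h and were not perfused before freezing.

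The choroid plexus is a sheet of epithelial cells over leaky, fenestrated capillaries. It secretes cerebrospinal fluid by moving sodium, bicarbonate, chloride and water into the ventricle, and it releases carrier proteins into that fluid. Its epithelium makes a set of transcripts that the endothelial cells of the blood-brain barrier largely lack, so that these transcripts can mark plexus in a vessel preparation.

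Library totals ran from 7813559 to 55133373 counts, around a median of 26989885, and were smallest for mouse 3 of the LPS-vehicle and mouse 1 of the LPS-CPD-4645 group. Markers of several brain cell types were present in every library. The summed level of 8 neuron markers ran from 6937 to 9491 CPM (counts scaled to TMM library sizes), against 487 to 1066 CPM for 10 endothelial markers and 3210 to 6508 CPM for 8 oligodendrocyte markers. The labelled vessel fraction thus held abundant neuronal and glial transcripts. In such bulk RNA, fewer cells of a type and less RNA per cell cannot be told apart.

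The choroid plexus markers were present in all 13 libraries, at levels that differed widely between the genes. Scaled to exon length, Ttr was highest at 310 ± 169 CPM per kilobase (SD, n = 13) and Enpp2 followed at 91.4 ± 16.3 CPM per kilobase. Ttr was above Enpp2 in 13 of 13 mice, and Enpp2 was above the next gene, Clic6, in 13 of 13. The other 8 genes lay far lower, from 2.54 ± 0.618 CPM per kilobase for Clic6 to 0.297 ± 0.0873 CPM per kilobase for Slc4a5. Between them came Otx2 at 1.93, Kl at 1.82, Aqp1 at 1.44, Folr1 at 1.14, Kcne2 at 1.01 and Prlr at 0.426 CPM per kilobase. Neighbours from Clic6 to Prlr kept their order in only 8 or 9 of 13 mice, so that their order was within the spread between mice, whereas Prlr was above Slc4a5 in 11 of 13. Together Ttr and Enpp2 made up 90.9 to 96.0% of the summed CPM of the 10 genes.

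**Figure D1:**
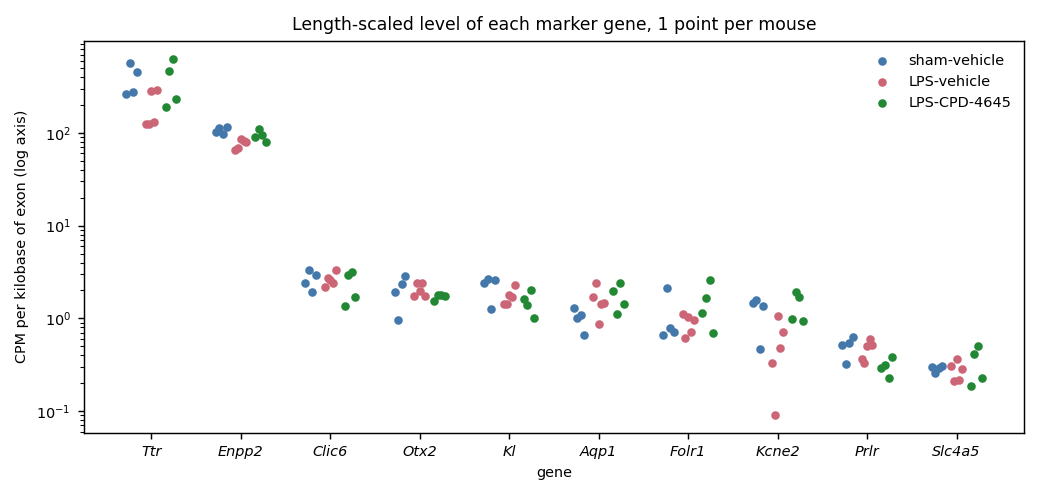
Level of each choroid plexus marker gene in CPM per kilobase of exon, on a log axis, with 1 point per mouse coloured by group. Ttr and Enpp2 stand above the other 8 genes in every mouse, and the lowest point is Kcne2 in LPS-vehicle mouse 2.

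Comparison of LPS-vehicle with sham-vehicle mice asked how the markers stood after the inflammatory challenge. Ttr fell 2.05-fold, and the other 9 genes did not pass the threshold, among them Enpp2, which was 1.40-fold lower with no overlap of the groups. A gene was called where edgeR's quasi-likelihood test gave a p of 0.05 or less after Benjamini-Hochberg adjustment and the change was 2-fold or more. By this rule 1 of the 10 genes was called, against 5.68% of all genes tested, or 0.995% called lower. At the adjusted p alone, 2 of the 10 passed, both lower, against 19.9% of all genes in either direction and 8.86% lower. The median log2 fold change of the 10 genes was -0.21, beside -0.001 over all genes, with 8 genes below 0 and 2 above it.

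Comparison of LPS-CPD-4645 with LPS-vehicle mice asked how the markers stood when the inhibitor was added. Ttr rose 2-fold and Kcne2 rose 2.90-fold, so that 2 of the 10 were called, against 5.90% of all genes tested, or 1.70% called higher. Enpp2 was 1.23-fold higher at an adjusted p of 0.036 in edgeR, under the 2-fold limit and with an adjusted p of up to 0.16 over the alternatives. At the adjusted p alone 3 of the 10 passed, all higher, against 30.5% of all genes and 14.1% higher, and the groups overlapped for all 10, whereas 23.0% of all genes had groups that did not. The median log2 fold change of the 10 genes was 0.19, beside -0.023 over all genes. Both of these comparisons use the same 5 LPS-vehicle mice, so that a chance low or high value in that group moves both.

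Comparison of LPS-CPD-4645 with sham-vehicle mice called 0 of the 10 genes in edgeR, against 11.1% of all genes tested. At an unadjusted p under 0.05 there were 3 genes, Kl, Aqp1 and Prlr, and limma-voom and DESeq2 likewise called 0. At the adjusted p alone 1 of the 10 passed, against 38.8% of all genes and 19.3% lower. This was Prlr, 1.64-fold lower at an adjusted p of 0.029 in edgeR, which reached 0.1 under the least favourable alternative. The groups overlapped for all 10 genes, whereas 37.5% of all genes had groups that did not. The median log2 fold change was -0.12, beside -0.014 over all genes.

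**Figure D2:**
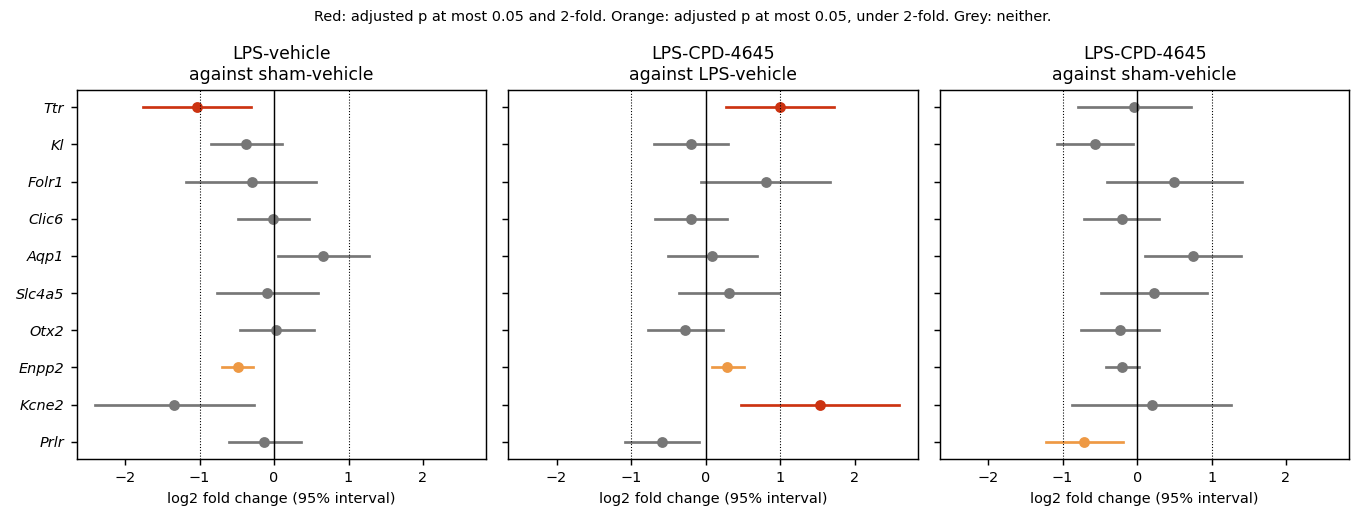
Log2 fold change of each marker gene with its 95% interval in the 3 comparisons, from the edgeR fit of 13 mice, with dotted lines at 2-fold. Ttr is called in the first and second panels and Kcne2 in the second, Enpp2 passes the adjusted p in both, and no gene is called in the third.

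Among the secreted proteins, Ttr encodes transthyretin, which carries thyroxine and the retinol-binding protein. The gene lies at chr18:20665280-20674321 (GRCm38). Sham-vehicle mice 1 to 4 had 312, 679, 325 and 536 CPM. LPS-vehicle mice 1 to 5 had 147, 148, 335, 156 and 345 CPM. LPS-CPD-4645 mice 1 to 4 had 222, 550, 752 and 278 CPM. After LPS, 3 mice sat below every sham mouse and 2 lay within the sham range, and the LPS-CPD-4645 mice spread from below the lowest sham mouse to above the highest. The log2 fold change was -1.04 ± 0.34 (SE) after LPS, with a 95% interval of -1.76 to -0.31 and an adjusted p of 0.041 in edgeR. For LPS-CPD-4645 against LPS-vehicle the 2-fold rise had an SE of 0.34 and an interval of 0.28 to 1.72 on the log2 scale and an adjusted p of 0.035 in edgeR. The log2 fold change was -0.04 for LPS-CPD-4645 against sham-vehicle, with an interval of -0.80 to 0.72.

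The Ttr calls depended on single mice, although the signs held in every alternative tried. The fall after LPS was no longer called without sham-vehicle mouse 2 (log2 fold change -0.79) or mouse 4 (-0.96), or without LPS-vehicle mouse 1 (-0.92), mouse 2 (-0.92) or mouse 4 (-0.93). The rise with CPD-4645 was no longer called without LPS-vehicle mouse 1 (0.88), mouse 2 (0.88) or mouse 4 (0.89), or without LPS-CPD-4645 mouse 2 (0.89) or mouse 3 (0.64). DESeq2 gave the same size of change with adjusted p of 0.086 and 0.074. For the rise, limma-voom gave 0.98 and a filter at a mean count of 50 gave 0.99, both just under 2-fold. The summed level of the erythrocyte markers was 468 to 958 CPM in sham-vehicle, 239 to 460 CPM in LPS-vehicle and 325 to 706 CPM in LPS-CPD-4645 mice. Of 6 erythrocyte genes 4 were tested, and all 4 were lower after LPS at the adjusted p without reaching 2-fold, against 8.86% of all genes. With CPD-4645 against LPS-vehicle 0 of the 4 passed the adjusted p in edgeR, the smallest being 0.12, against 30.5% of all genes, with 1 at an unadjusted p under 0.05 and 0 called by limma-voom or DESeq2. All 4 lay above 0 there, with a median log2 fold change of 0.49, and Hba-a2 was near 0 in every group. Their part in the Ttr result was not tested.

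Enpp2 encodes autotaxin, the secreted enzyme that makes lysophosphatidic acid, and is also made by oligodendrocytes. It lies at chr15:54838901-54952892. Its level was 342, 378, 326 and 391 CPM in sham-vehicle mice 1 to 4. In LPS-vehicle mice 1 to 5 it was 221, 228, 290, 274 and 267 CPM. LPS-CPD-4645 mice 1 to 4 had 302, 368, 319 and 265 CPM. Every LPS-vehicle mouse was below every sham mouse, as held for 8.44% of all genes, and the LPS-CPD-4645 mice overlapped both groups. The log2 fold change after LPS was -0.49 ± 0.10 (SE), with an adjusted p of 0.0021 in edgeR, and it stayed between -0.54 and -0.44 in all 22 alternatives. Against LPS-vehicle it was 0.29 ± 0.10 with CPD-4645.

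Oligodendrocyte markers moved with Enpp2. Their summed level was 4553 to 6508 CPM in sham-vehicle, 3210 to 4251 CPM in LPS-vehicle and 3744 to 4811 CPM in LPS-CPD-4645 mice, and after LPS 5 of 8 were lower at the adjusted p, against 8.86% of all genes, and 1 was higher. Between the LPS groups 2 were higher and 2 lower, against 30.5% of all genes in either direction. The part of these cells in the Enpp2 result was not tested. A receptor of lysophosphatidic acid, Lpar1, was at 31.9 ± 2.9 CPM in sham-vehicle mice (SD, n = 4) and fell to 15.4 ± 4.44 CPM after LPS (n = 5). Another, Lpar6, was at 6.66 ± 2.81 and 5.9 ± 0.995 CPM in the same groups and was not called.

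Among the channels and transporters, Kcne2 encodes a small subunit that regulates potassium channels of the plexus membrane. It lies at chr16:92292389-92298129. Sham-vehicle mice 1 to 4 had 2.60, 2.78, 0.836 and 2.42 CPM. LPS-vehicle mice 1 to 5 had 0.584, 0.161, 1.89, 0.849 and 1.25 CPM. LPS-CPD-4645 mice 1 to 4 had 1.74, 3.43, 3.01 and 1.65 CPM. LPS-vehicle mice 1 and 2 were below every other mouse, mice 3, 4 and 5 lay within the sham range, and mouse 3 also lay within the LPS-CPD-4645 range. These levels came from 9 to 98 counts a library.

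Kcne2 was 1.54 ± 0.51 (SE) higher on the log2 scale with CPD-4645 than with LPS alone, with an interval of 0.47 to 2.60 and an adjusted p of 0.029 in edgeR. After LPS its log2 fold change was -1.34 ± 0.51, with an interval of -2.40 to -0.27 and an adjusted p of 0.072, which was not called. This value was called by limma-voom (-1.89) and DESeq2 (-1.29), and in edgeR without sham-vehicle mouse 3 (-1.60) or LPS-vehicle mouse 3 (-1.62). The rise with CPD-4645 was no longer called without LPS-vehicle mouse 1 (1.42) or mouse 4 (1.54, adjusted p of 0.051), or without LPS-CPD-4645 mouse 2 (1.32) or mouse 3 (1.43).

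The 250 bases before the Kcne2 start that lies furthest upstream are shown because Kcne2 passed the threshold between the LPS groups. They are given 5′ to 3′ on the plus strand at chr16:92292139-92292388 (RefSeq, GRCm38.p6), with TAAT, the core bound by homeodomain factors such as OTX2, in capitals on either strand:
Kcne2: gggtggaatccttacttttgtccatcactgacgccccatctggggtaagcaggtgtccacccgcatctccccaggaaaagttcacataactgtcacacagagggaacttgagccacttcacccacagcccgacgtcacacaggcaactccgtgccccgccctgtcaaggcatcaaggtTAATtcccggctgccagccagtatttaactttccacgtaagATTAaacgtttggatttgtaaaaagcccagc
The window shown held 2 such cores, as did the window before a further Kcne2 start, at chr16:92295366-92295615. TAAT is short, and 54.9% of 32851 promoter windows of this length held it on either strand.

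Clic6 encodes a member of the chloride intracellular channel family and lies at chr16:92485736-92541243. It was at 9.13, 12.5, 7.17 and 11.1 CPM in sham-vehicle mice 1 to 4. LPS-vehicle mice 1 to 5 had 8.28, 10.2, 9.83, 8.98 and 12.4 CPM. LPS-CPD-4645 mice 1 to 4 had 5.14, 11, 11.9 and 6.36 CPM. The groups overlapped throughout. The log2 fold change after LPS was -0.01, with a 95% interval of -0.48 to 0.47. The interval for Ttr, -1.76 to -0.31, overlapped it, and the difference between the 2 genes was not tested. The sign of the Clic6 value, and of that of Otx2 after LPS, turned under some alternatives.

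Counts of Clic6 per 1000 counts of Ttr in the same library need no scaling between libraries. They were 18.5 to 29.3 in sham-vehicle, 29.4 to 68.8 in LPS-vehicle and 15.8 to 23.1 in LPS-CPD-4645 mice. The lowest LPS-vehicle mouse and the highest sham mouse were nearly equal. Of the 9 genes set against Ttr, Clic6 stood above the sham mice in LPS-vehicle mice, as did 15.8% of all genes tested, and Clic6 and Prlr stood lower with CPD-4645 than in LPS-vehicle mice, as did 5.54% of all genes. Because Ttr itself was called in both comparisons, a gene at a constant level rises and falls in this ratio. The ratio was chosen after the values were seen and was not tested. Kcne2 per 1000 counts of Ttr overlapped in every comparison, at 2.57 to 8.32, 1.09 to 5.65 and 4.01 to 7.82.

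Aqp1 encodes the water channel of the apical plexus membrane, which red blood cells also carry, and lies at chr6:55336432-55348555. Sham-vehicle mice 1 to 4 had 3.39, 2.65, 2.83 and 1.73 CPM. In LPS-vehicle mice 1 to 5 it was at 4.43, 6.37, 2.27, 3.75 and 3.82 CPM. With CPD-4645, mice 1 to 4 had 5.14, 2.94, 6.25 and 3.73 CPM. Values of both LPS groups were mostly above the sham range, but each held a mouse inside it. Aqp1 had a log2 fold change of 0.66 after LPS (interval 0.05 to 1.27, adjusted p of 0.12 in edgeR) and 0.75 for LPS-CPD-4645 against sham-vehicle (interval 0.11 to 1.39, adjusted p of 0.059), and was not called. The summed erythrocyte markers were given with Ttr, and their part in the Aqp1 values was not tested.

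Slc4a5 encodes a sodium bicarbonate cotransporter and lies at chr6:83219828-83304945. It was at 1.58 ± 0.118 CPM (SD, n = 4) in sham-vehicle, 1.52 ± 0.359 CPM (n = 5) in LPS-vehicle and 1.82 ± 0.813 CPM (n = 4) in LPS-CPD-4645 mice. Its 95% intervals on the log2 scale were -0.77 to 0.59 after LPS and -0.36 to 0.99 for CPD-4645 against LPS-vehicle.

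Among the receptors, Folr1 encodes folate receptor alpha, which carries folate into the cerebrospinal fluid. It lies at chr7:101858331-101870788. Sham-vehicle mice 1 to 4 had 1.06, 3.38, 1.23 and 1.14 CPM. The 5 LPS-vehicle mice had 1.75, 0.969, 1.64, 1.12 and 1.52 CPM. The 4 LPS-CPD-4645 mice had 1.82, 2.59, 4.07 and 1.10 CPM. A single sham mouse and 2 LPS-CPD-4645 mice stood above the others. Its log2 fold change was -0.30 after LPS and 0.81 for CPD-4645 against LPS-vehicle (interval -0.06 to 1.67, adjusted p of 0.15 in edgeR). Without sham-vehicle mouse 2, Folr1 was called higher in LPS-CPD-4645 than in sham-vehicle mice, at a log2 fold change of 1.09 in place of 0.50, and its change after LPS turned from -0.30 to 0.27. Anapc15 overlaps Folr1 on the opposite strand, and since the strand setting of the counting is not given in the sources used here, its reads could enter. Anapc15 was at 24.0 ± 2.55, 22.4 ± 2.19 and 21.3 ± 1.98 CPM in the 3 groups. The genes that overlap Clic6, Otx2, Enpp2 and Prlr (2410124H12Rik, Otx2os1, Gm26684 and Gm21973) were at 0.667 CPM or less in every mouse.

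Kl encodes Klotho, the co-receptor of FGF23, and lies at chr5:150952607-150993817. It was at 12.3, 13.7, 6.41 and 13.4 CPM in sham-vehicle mice 1 to 4. In LPS-vehicle mice 1 to 5 it was at 7.38, 7.30, 9.20, 8.71 and 11.7 CPM. With CPD-4645, mice 1 to 4 had 8.30, 7.10, 10.4 and 5.14 CPM. Sham-vehicle mice 1, 2 and 4 were above every mouse of both LPS groups, and sham-vehicle mouse 3 was below all but 1 of them. Kl had log2 fold changes of -0.37 after LPS (adjusted p of 0.28 in edgeR) and -0.57 for LPS-CPD-4645 against sham-vehicle (adjusted p of 0.075), neither of which was called.

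Prlr encodes the prolactin receptor and lies at chr15:10177238-10349180. Sham-vehicle mice 1 to 4 had 6.85, 4.18, 7.05 and 8.25 CPM. The 5 LPS-vehicle mice had 4.77, 4.32, 6.68, 7.78 and 6.71 CPM. The 4 LPS-CPD-4645 mice had 3.87, 4.13, 2.97 and 5.06 CPM. The LPS-CPD-4645 mice were the lowest group, with 3 of 4 mice below every mouse of the others. The log2 fold change was -0.71 ± 0.25 (SE) against sham-vehicle, with an adjusted p of 0.029 in edgeR, and -0.58 ± 0.24 against LPS-vehicle, with an adjusted p of 0.07. Both were under the 2-fold limit, and the log2 fold change after LPS alone was -0.13.

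Otx2 encodes the homeodomain transcription factor of the plexus epithelium and lies at chr14:48657677-48673819. Sham-vehicle mice 1 to 4 had 5.76, 2.90, 7.01 and 8.49 CPM. In LPS-vehicle mice 1 to 5 it was at 5.22, 7.23, 5.92, 7.20 and 5.19 CPM. With CPD-4645, mice 1 to 4 had 4.59, 5.32, 5.34 and 5.22 CPM. All LPS mice lay within the sham range. After LPS its log2 fold change was 0.03, with a 95% interval of -0.46 to 0.53, and -0.27 for CPD-4645 against LPS-vehicle, with an interval of -0.77 to 0.24.

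The OTX2 core TAATCC was searched on both strands in the 250 bases before each start of the 6 genes with RefSeq promoter windows (Kl, Aqp1, Slc4a5, Otx2, Kcne2 and Prlr). It occurred in 1 of 12 windows, against 6.25% of all windows of this length. That window belongs to Otx2 itself and is shown for this match, on the minus strand at chr14:48665110-48665359, with the core in capitals, here in reverse complement:
Otx2: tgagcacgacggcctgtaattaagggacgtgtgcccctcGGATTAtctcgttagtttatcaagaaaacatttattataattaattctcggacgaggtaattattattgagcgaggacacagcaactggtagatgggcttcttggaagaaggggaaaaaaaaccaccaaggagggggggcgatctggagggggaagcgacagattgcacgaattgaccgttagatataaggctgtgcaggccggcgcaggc
The longer core contains TAAT, so that every match to it is also a match to the homeodomain core searched before Kcne2.

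**Figure D3:**
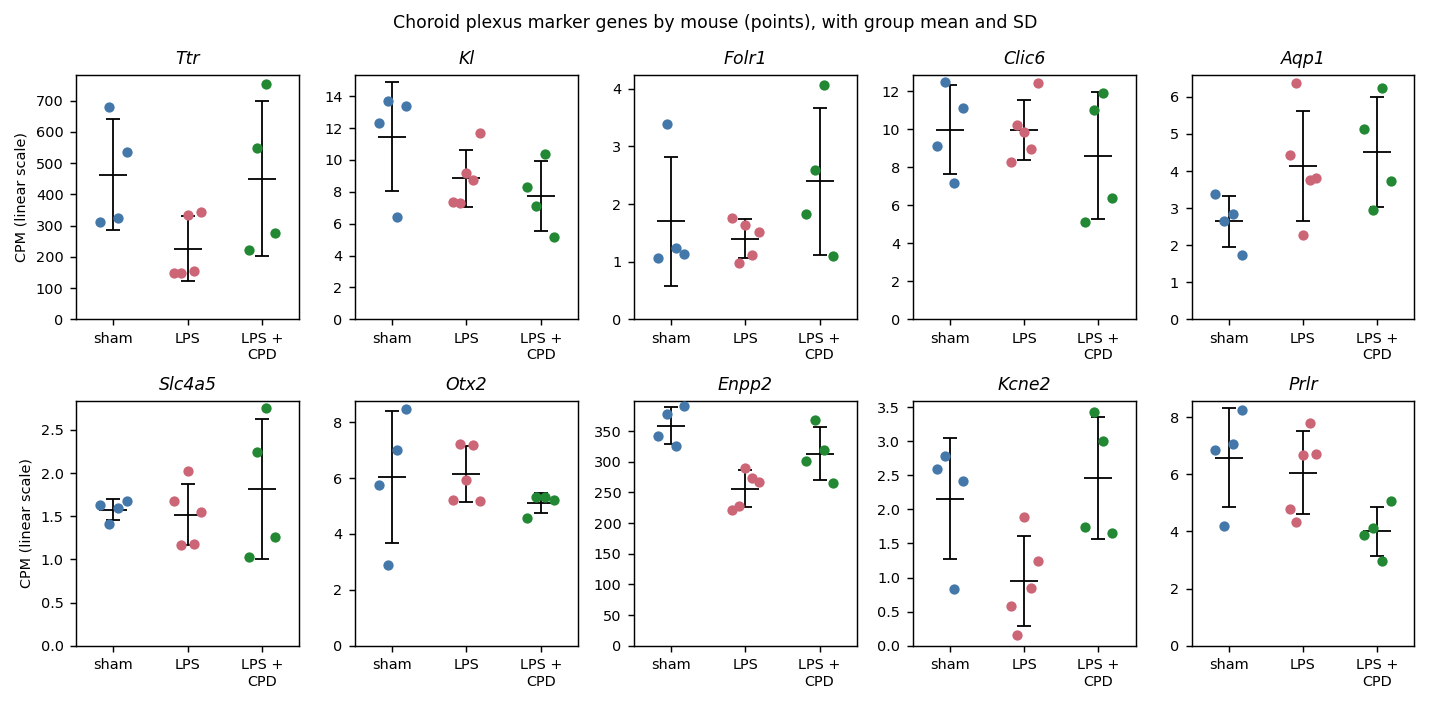
Level of each marker gene in CPM on a linear axis starting at 0, with 1 point per mouse and black bars for the group mean and SD. Enpp2 is the only gene whose sham and LPS-vehicle points do not overlap, and Ttr and Kcne2 spread widely within each group.

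The markers did not vary alike between mice of 1 group. The within-group SD of log2 CPM was 0.90 for Kcne2, 0.68 for Ttr and 0.63 for Folr1, and 0.17 for Enpp2. For Ttr, with a median of 8255 counts a library, counting error accounted for 0.02 on this scale, and for Kcne2, with a median of 42 counts, for 0.22. Sham-vehicle mouse 2 was the highest of its group for Ttr, Kl, Folr1, Clic6 and Kcne2 and the lowest for Slc4a5, Otx2 and Prlr. LPS-CPD-4645 mouse 3 was the highest of its group for 7 of the 10 genes, Ttr, Kl, Folr1, Clic6, Aqp1, Slc4a5 and Otx2, and the lowest for Prlr.

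Over the 13 mice, with each group's mean removed, Pearson's r with Ttr was 0.86 for Clic6, 0.72 for Slc4a5, 0.70 for Folr1 and Enpp2, 0.69 for Kcne2 and 0.61 for Kl. It was -0.17 for Prlr, -0.25 for Otx2 and -0.38 for Aqp1. Pairs among the first 6 genes themselves ran from 0.29 (Kl with Slc4a5) to 0.75 (Enpp2 with Kcne2). These values describe 13 libraries that share 1 scaling, and no test was made of them.

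**Figure D4:**
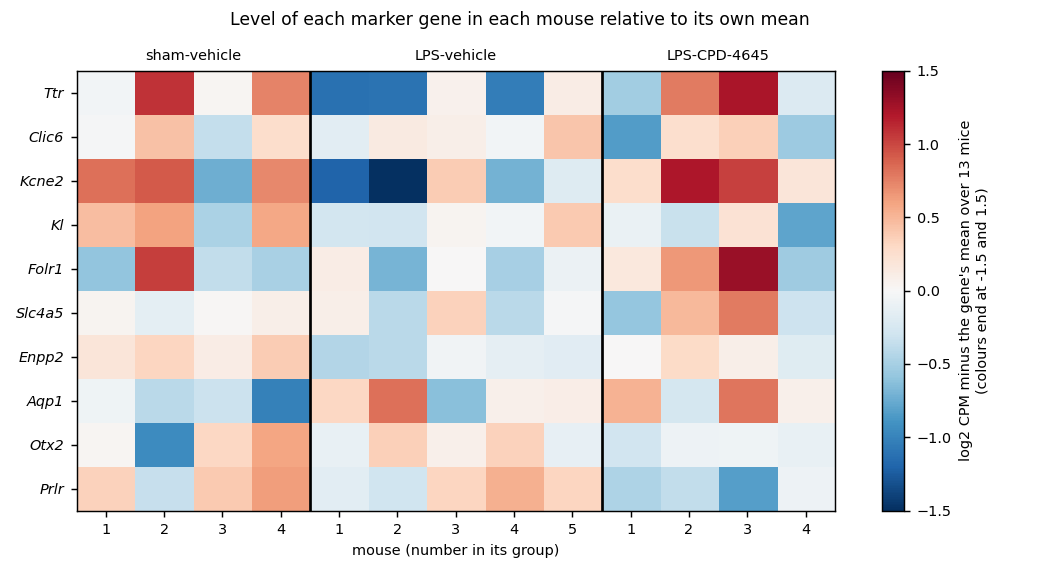
Log2 CPM of each marker gene in each mouse minus the gene's mean over the 13 mice, with red for above and blue for below the mean and colours ending at -1.5 and 1.5. Ttr and Kcne2 are low in LPS-vehicle mice 1, 2 and 4, and LPS-CPD-4645 mouse 3 is high for most genes in the upper rows.

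The non-members whose pattern was most like the mean of the 10 genes over the 13 mice were Snu13 (r = 0.84), Sult2b1 (0.80) and Psmd5 (0.78), followed by Ndufa7, 0610012G03Rik, Mrpl10, Mlf1, Dctn3, 1500015O10Rik and Ldha, the last at 0.73. With group means removed they were Snu13 (0.85), Sncaip, Accs, Stk4, Lrrtm1, Pam16, Mrpl28, Psmd5, Calml4 and Ddx11 (0.81). Calml4 was the only gene of these lists that also stood in the list of further plexus genes. That list holds only 20 genes and does not name every gene that the plexus makes.

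Of 20 further genes of the plexus epithelium, 19 were tested. After LPS 3 fell and 1 rose, against 0.995% of all genes called lower and 5.68% called in either direction. At the adjusted p alone 6 were lower and 2 higher, against 8.86% of all genes lower and 19.9% in either direction, with a median log2 fold change of 0.00 over the 19. Msx1, a homeodomain factor, fell from 5.56 ± 0.612 CPM in sham-vehicle to 2.01 ± 0.933 CPM in LPS-vehicle mice (SD, n = 4 and 5). Kcnj13, a potassium channel of the apical membrane, fell from 2.21 ± 1.20 to 0.905 ± 0.321 CPM, and Calml4 fell from 2.80 ± 0.899 to 1.25 ± 0.301 CPM. Col8a1, a collagen chain also made by vascular cells, rose from 2.28 ± 0.73 to 4.71 ± 1.07 CPM.

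With CPD-4645 against LPS-vehicle, edgeR called 0 of the 19, against 5.90% of all genes, with 0 at an unadjusted p under 0.05, and limma-voom and DESeq2 also called 0. The 2 most abundant, Htr2c, a serotonin receptor that neurons also make, and Cab39l, were at 75.8 ± 5.18 and 49.6 ± 7.44 CPM in LPS-vehicle and at 75.6 ± 12.3 and 43.7 ± 5.34 CPM in LPS-CPD-4645 mice. Against sham-vehicle 2 of the 19 were called, both lower, against 11.1% of all genes. Sostdc1, a secreted antagonist of BMP and Wnt signals, fell from 5.51 ± 1.55 to 1.95 ± 0.442 CPM with LPS and CPD-4645, and Kcnj13 fell to 0.876 ± 0.332 CPM. The tight junction gene Cldn2, typical of the plexus and other leaky epithelia, was at 1.41 ± 0.541, 1.37 ± 0.334 and 2.34 ± 1.04 CPM in the 3 groups and was not called.

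Genes for the pathways of the markers fell into 3 lists, whose counts after LPS stand beside the 5.68% of all genes called there. Of 14 genes of ion and water transport into the cerebrospinal fluid, 1 fell and 0 rose after LPS. This was Car2, a carbonic anhydrase that oligodendrocytes also make, at 400 ± 23.6 CPM in sham-vehicle and 118 ± 37.8 CPM in LPS-vehicle mice. Of 12 genes of retinoid and thyroid hormone handling, the cargo of transthyretin, 1 rose and 1 fell. Stra6, the receptor of retinol-binding protein, rose from 4.51 ± 0.779 to 38.1 ± 17.9 CPM after LPS and fell to 9.35 ± 4.29 CPM with CPD-4645. Slco1c1, a thyroxine transporter that brain endothelial cells make as well, fell from 65.9 ± 13.7 to 23.5 ± 10.1 CPM. Dio2, which activates thyroxine, rose with CPD-4645 from 23.5 ± 9.15 to 85.1 ± 15.9 CPM.

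Of 13 tested genes of the Klotho, prolactin and folate pathways, 1 rose and 2 fell after LPS. Stat5a, which acts below the prolactin receptor, rose from 2.95 ± 0.522 to 7.08 ± 2.98 CPM, and Fgfr2, a partner of Klotho-type co-receptors, fell from 75.7 ± 3.1 to 33.3 ± 4.96 CPM. Between the LPS groups edgeR called 0 of the 13, against 5.90% of all genes, with 5 at an unadjusted p under 0.05, and limma-voom and DESeq2 called 0. Against sham-vehicle 2 of the 13 rose with LPS and CPD-4645, Fgf23 and Stat5a, and 2 fell, Lpar1 and Slc46a1, against 11.1% of all genes called. The proton-coupled folate transporter Slc46a1 fell from 13.9 ± 1.55 to 6.07 ± 1.21 CPM, and Fgf23 rose from 0.22 ± 0.107 to 0.722 ± 0.238 CPM.

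Cells that lie next to the plexus were followed by their own markers. The summed level of 12 ependymal markers was 41.6 to 44.4 CPM in sham-vehicle, 33.1 to 55.7 CPM in LPS-vehicle and 28.6 to 43.6 CPM in LPS-CPD-4645 mice, groups that overlapped. Of 11 tested, 1 was called after LPS (Hdc, higher), against 5.68% of all genes, and 1 between the LPS groups (Ccdc153, lower), against 5.90%. After LPS 8 of the 11 lay below 0 and 3 above it. At the adjusted p alone 2 were higher and 1 lower there, against 19.9% of all genes. LPS-CPD-4645 against sham-vehicle mice had 2 called, Ccdc153 and Rsph1, both lower, against 11.1%. At the adjusted p alone 2 were higher and 2 lower, against 38.8%. The summed level of 10 meningeal and stromal fibroblast markers was 282 to 304 CPM in sham-vehicle and 201 to 259 CPM in LPS-vehicle mice, which did not overlap. The LPS-CPD-4645 mice, at 224 to 283 CPM, overlapped both. After LPS 2 of the 10 were called, both lower, against 5.68% of all genes called and 0.995% called lower. These were Col3a1 and Ogn, which fell by 1.07 and 1.56 on the log2 scale. At the adjusted p alone 6 of the 10 were lower and 1, Dcn, was higher, against 19.9% of all genes and 8.86% lower. In LPS-CPD-4645 against sham-vehicle mice 4 of the 10 were called, all lower, against 11.1% of all genes. These were Col1a1, Col3a1, Slc6a13 and Ogn. There 5 were lower and 1 higher at the adjusted p alone, against 38.8% of all genes and 19.3% lower. The summed level of the 8 plexus markers other than Ttr and Enpp2 was 34.1 to 48.2 CPM in sham-vehicle, 34.1 to 44.1 CPM in LPS-vehicle and 29.5 to 46.6 CPM in LPS-CPD-4645 mice and overlapped in all comparisons.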

How the data were processed

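The authors isolated vessels from frozen brains, prepared stranded mRNA libraries from 50 ng of RNA, aligned reads with STAR 2.5.2a to GRCm38 and deposited whole-number counts of genes in the basic set of GENCODE M9. The labels supplied groups and mouse numbers. Identifiers were matched to GENCODE M21, on the same build, for 47224 of 47643 genes. Counts were fitted with edgeR 4.0.16 in R 4.3.3 (filterByExpr, minimum count 10, TMM, all 13 mice in 1 quasi-likelihood fit, Benjamini-Hochberg over all 17285 genes). CPM used TMM-scaled totals and log2 CPM a prior count of 2. Alternatives were limma-voom 3.58.1, DESeq2 1.42.0, other scalings and filters, only the groups compared, a replicate block and each mouse left out. The scripts were tested on simulated data. The markers and gene lists were chosen with earlier results of these data known. All 10 markers are named. From the other lists, at most the 4 largest called changes per comparison qualified, or the 2 most abundant genes. Cldn2, Dcn, Hba-a2 and Lpar6 were named after their values were seen. The labels number the mice, and p-values measure the spread between these mice.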

Additional observations from a re-analysis of the deposited data

Results flagged for a closer look

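Of 30 combinations of a marker gene and a group, 2 held a mouse far from the others of its group by Dixon's criterion, which chance meets in about 1 of 20 groups. Folr1 was at 3.38 CPM in sham-vehicle mouse 2, and the nearest of the other sham mice was at 1.23 CPM. Otx2 was at 4.59 CPM in LPS-CPD-4645 mouse 1, and the nearest mouse of that group was at 5.22 CPM.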

How the results depend on the processing

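After LPS, 1 of the 10 markers was called, and limma-voom called 2, as did the fit without the 2 shallowest libraries, an alternative chosen after seeing the data. Leaving out single mice gave 0 to 2. With CPD-4645 against LPS-vehicle 2 were called, and limma-voom and DESeq2 called 1 each. A mean count of at least 50, which drops Kcne2, Folr1 and Slc4a5, gave 0, since Ttr also moved to just under 2-fold (log2 0.99), and leaving out single mice gave 0 to 2. Against sham-vehicle 0 were called, and 0 or 1 with a mouse left out. Of 651 fold changes under the alternatives, 627 kept their side of the threshold, 18 lost a call, 6 gained one and 0 called values reversed, while 21 values that were not called changed sign (Folr1, Clic6 and Otx2 after LPS, Aqp1 between the LPS groups, and Ttr, Kcne2 and Slc4a5 against sham-vehicle). Kcne2, Folr1 and Slc4a5 had the fewest counts, with medians of 42, 41 and 43, and counting errors of 0.22, 0.23 and 0.22 on the log2 scale beside within-group SDs of 0.90, 0.63 and 0.41.

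With the mouse number as a replicate block, the markers called were 1, 2 and 0 in the 3 comparisons, and genes called moved from 981, 1019 and 1917 to 972, 939 and 1882. Mice of the same number in different groups correlated in their deviations at -0.0346 to 0.114, with a median of 0.0273. For mice of different numbers the range was -0.137 to 0.124, with a median of -0.013. The labels do not say what the numbers stand for, and a shared order of processing was not tested.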
